A study of Mus musculus with 12 samples.

Results

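Immune cells of the heart were followed through 37 genes that mark macrophages, neutrophils, T cells and B cells. A member was any listed symbol that equalled the gene name of a non-control probe on the array, and all 37 symbols were found among 37074 gene names. The list held 26 macrophage and shared leukocyte genes, 4 neutrophil genes, 4 T cell genes and 3 B cell genes, carried by 62 probes. Messenger RNA came from heart muscle of C57BL6/J males aged 5 months, with 1 single-colour array per mouse, no pooling and 3 mice in each of 4 groups. The mice were 6 to 7 weeks old at the start. Control mice (C) received neither agent. The C + P mice received pargyline, which inhibits monoamine oxidase, at a daily 50 mg/kg over 12 weeks. The D mice received streptozotocin, a toxin of insulin-producing cells, at a daily 50 mg/kg on 5 days and counted as diabetic from a blood glucose of 17 mM. The D + P mice received both agents. Whole tissue was used, so RNA of all cell types of the heart, and of blood left in it, was measured together.

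Most resident leukocytes of a healthy heart are macrophages, which lie between the muscle cells, take up dying cells and debris and renew themselves locally or from blood monocytes. Resident cells carry surface receptors such as Cd163, Lyve1, Timd4 and Folr2, whereas cells that recently left the blood carry the chemokine receptor Ccr2. Macrophages depend on the growth factor receptor Csf1r and make complement C1q. Neutrophils are short-lived blood phagocytes packed with the calcium-binding proteins S100a8 and S100a9. T cells carry the Cd3 complex with Cd4 or Cd8, and B cells carry Cd79a, Cd79b and Ms4a1 (CD20).

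The macrophage label fitted the signal, and the lymphocyte labels fitted it in part. Of the 37 genes, 33 had at least 1 tested probe, that is, a probe whose signal was positive and significant in each group on 50% of its arrays or more. Of these 33 genes, 25 were well above background on all 12 arrays, among them *Csf1r*, *Cd68*, *Cd163*, *Mrc1*, *Lyve1*, *C1qa*, *C1qb* and *C1qc*. The 4 genes without a tested probe were *Fcgr1*, the high-affinity receptor for IgG, *Cd3g*, a chain of the T cell receptor complex, *Cd8a*, the co-receptor of killer T cells, and *Cd79a*. *Cd79a* and *Cd3g* were well above background on 0 of 12 arrays, and so was each probe of *Cd8a*. *Fcgr1* was so on 1 array. *Cd4* was well above background on 12 of 12 arrays by its brightest probe, but its other probes were so on 1 and on 0 of 12 arrays. *Ms4a1* was so on 2 arrays and *Itgax* on 2. Signal under the symbols *Cd3e* and *Cd4* was therefore not accompanied by *Cd3g* or *Cd8a*, and that under *Cd79b* was not accompanied by *Cd79a*.

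Promoters are shown for 5 macrophage genes whose mean was lower in both diabetes contrasts, as the 150 bases before the start site in RefSeq (GRCm38.p6). The capitals mark GGAAGT or, read on the other strand, ACTTCC, the core bound by ETS factors such as PU.1, the master regulator of myeloid cells. The 5 sequences lie at chr4:130913166-130913315 (+ strand) for *Laptm5*, chr4:136886201-136886350 (- strand) for *C1qb*, chr10:117292869-117293018 (- strand) for *Lyz1*, chr10:117282273-117282422 (- strand) for *Lyz2* and chr6:124304501-124304650 (+ strand) for *Cd163*.
Laptm5: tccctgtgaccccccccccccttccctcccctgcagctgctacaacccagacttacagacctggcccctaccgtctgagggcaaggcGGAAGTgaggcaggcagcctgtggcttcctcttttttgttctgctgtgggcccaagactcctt
C1qb: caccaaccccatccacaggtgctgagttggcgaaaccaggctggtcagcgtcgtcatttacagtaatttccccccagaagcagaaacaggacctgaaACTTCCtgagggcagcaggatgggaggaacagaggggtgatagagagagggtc
Lyz1: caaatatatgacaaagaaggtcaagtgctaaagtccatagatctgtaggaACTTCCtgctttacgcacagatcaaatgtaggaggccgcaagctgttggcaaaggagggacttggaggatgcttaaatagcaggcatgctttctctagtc
Lyz2: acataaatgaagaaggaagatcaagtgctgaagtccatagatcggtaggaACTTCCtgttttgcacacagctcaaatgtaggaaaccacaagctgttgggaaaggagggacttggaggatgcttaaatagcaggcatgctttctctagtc
Cd163: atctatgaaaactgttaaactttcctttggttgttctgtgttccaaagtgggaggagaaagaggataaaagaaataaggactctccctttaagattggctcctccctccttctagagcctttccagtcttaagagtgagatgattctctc
These letters occurred in the shown stretch of the first 4 genes and not in that of *Cd163*, the member with the smallest p in D versus C and in the average of both diabetes contrasts. Of the other macrophage genes lower in both contrasts, *Ptprc* and *Folr2* had the letters in the same stretch of a promoter. *Aif1*, *Cx3cr1*, *Fcer1g*, *Fcgr3*, *Cd68*, *C1qc*, *Mrc1* and *Ctss* did not have them in full there. A link between the letters and the lower values was not tested. In windows from 250 bases before to 50 after the start, GGAAGT on either strand was found for 18 of the 28 members with an entry (64.3%), against 7175 of 27025 genes (26.5%). The share was 13 of 20 for macrophage genes, 3 of 4 for neutrophil genes, 1 of 3 for T cell genes and 1 of 1 for B cell genes. A match describes letters and is not a binding site. The shown stretches of *Lyz1* and *Lyz2*, neighbours on chromosome 10, were identical at 129 of 150 positions (86.0%), whereas the next most alike of 378 pairs reached 38.7%. The 3 C1q genes also lie side by side, on chromosome 4, and *S100a8* and *S100a9* on chromosome 3.

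The sequences of 2 probes limit what their signals mean. The only probe of *Csf3r*, the receptor for granulocyte colony-stimulating factor (mm9, chr4:125721478-125721537), shared runs of 16 or more bases with 11 probes of other genes. The brightest *Itgam* probe (mm9, chr7:135261755-135261814) held a 20-base CA repeat and shared such runs with 118 probes. In the 30-base stretches below, capitals mark a shared run for *Csf3r* and the repeat for *Itgam*.
Csf3r probe: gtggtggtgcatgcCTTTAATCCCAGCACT
Itgam probe: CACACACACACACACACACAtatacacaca
Of the 62 member probes, 3 others shared such a run, each with 1 or 2 probes. Values of *Csf3r* and *Itgam* are thus uncertain as measures of these genes.

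The arrays set limits of their own. Well above background were between 23556 spots (D replicate 1) and 29231 spots (C replicate 2) of 59305 per array. The range was 28472 to 29231 in C, 25164 to 28272 in C + P, 23556 to 28774 in D and 25157 to 27930 in D + P, so the range reached lower in D than in C but overlapped it, and the part of brightness in the results below was not tested. C and D lay on 1 slide and C + P and D + P on the other, so slide and pargyline cannot be told apart. Row and diabetes cannot be told apart either, since row 1 held the non-diabetic and row 2 the diabetic mice on each slide. D versus C and D + P versus C + P shared no array, and each compared mice within 1 slide. Precision is limited by 3 arrays a group, for which 0.1 is the smallest two-sided p of an exact permutation test.

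Diabetes was compared first, to ask whether immune cell genes differ in diabetic hearts. Macrophage genes were for the most part lower in diabetic than in non-diabetic hearts, with and without pargyline, but no single member passed the threshold. In D versus C, 23 of 25 tested macrophage genes had a lower mean in D, with a median log2 difference of -0.37, beside -0.01 over all 30859 tested probes. In D + P versus C + P it was 21 of 25, with a median of -0.45 beside 0.0072. These counts take the brightest tested probe of each gene. In D versus C the other tested probes of *Itgam* (0.92), *Lyz2* (0.59) and *Csf1r* (0.27) were higher in D. Those of *Cd14*, *Cd68*, *Cx3cr1*, *Fcgr3* and *Ptprc* were lower. Lower in both contrasts were 21 of 25 macrophage genes (84%), against 27% of all tested probes, and the genes are not independent of each other. All tested probes were lower in 51.1% of cases in D versus C, in 49% in D + P versus C + P and in 51.5% when both were averaged. Fewer cells of a type and less RNA per cell cannot be told apart in such tissue. The heat map of members by array shows this block of lower values beside *S100a8* and *S100a9*, whose means were highest in C + P.

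**Figure D1:**
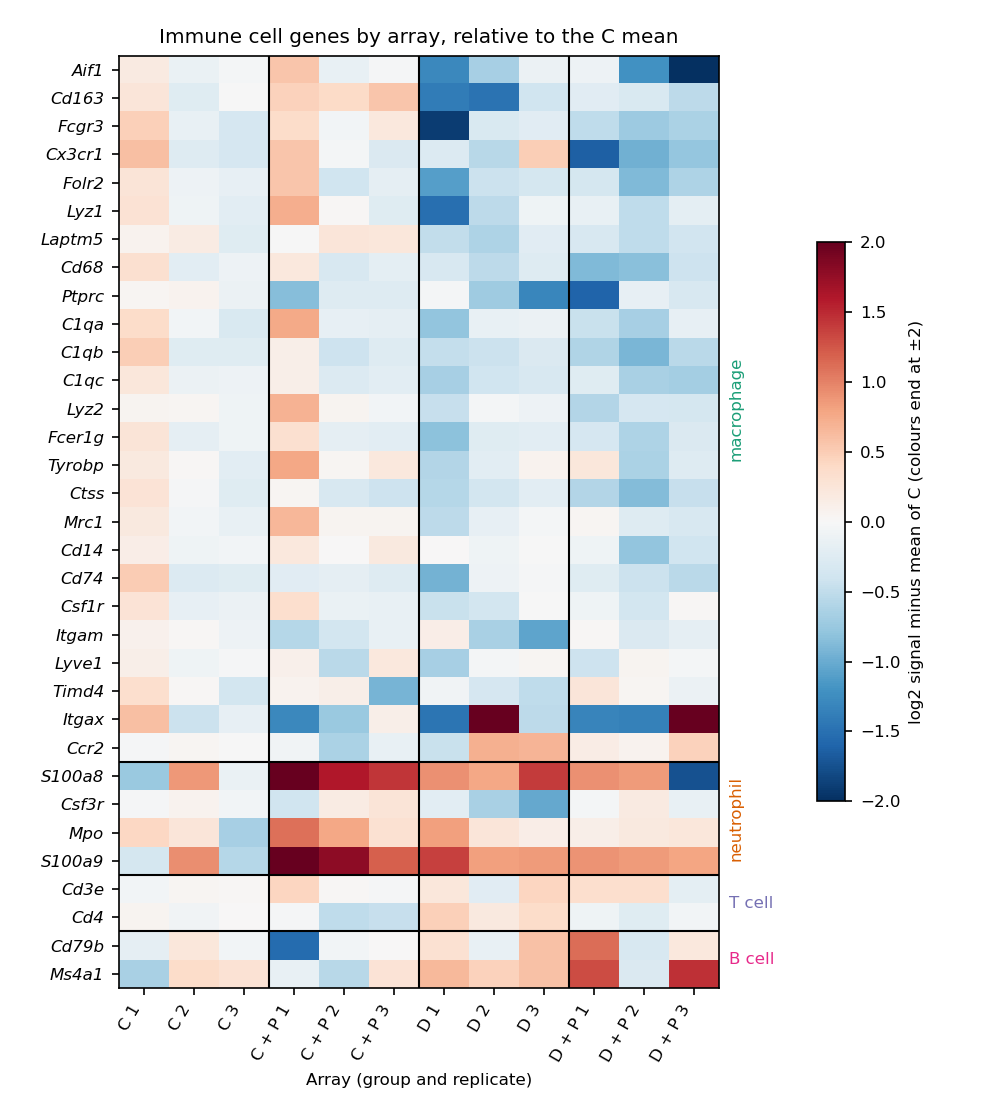
Each row is 1 of the 33 tested genes (brightest tested probe), ordered within its class by the difference for diabetes averaged over pargyline, and each column 1 array. Colour is log2 signal minus the mean of the 3 C arrays, blue for lower and red for higher, and macrophage rows are mostly blue in D and D + P while *S100a8* and *S100a9* are red in all 3 C + P arrays.

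By limma with Benjamini-Hochberg adjustment over all tested probes, 0 of 33 members passed an adjusted p of 0.05 in D versus C, in D + P versus C + P or in the average of both, where 0.00648%, 0.0454% and 0.107% of all probes did. At an unadjusted p under 0.05 stood 5, 9 and 17 of 33 members, against 10.8%, 7.46% and 11.4% of all probes. The methods' t-test also called 0 members in D versus C and in D + P versus C + P. Of the 17 in the average, 15 were macrophage genes, all lower in diabetes, as were 5.46% of all probes, and *Cd4* and *Ms4a1* were higher. Without C replicate 1, which had the highest macrophage signal of its group, 10 members had such a p in the average, and the median macrophage difference in D versus C was -0.17. Without C + P replicate 1 the median in D + P versus C + P was -0.28.

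Receptors of resident macrophages are given first. *Cd163*, which clears haemoglobin bound to haptoglobin, had the smallest p of any member. Its log2 signal came to 9.30, 8.81 and 9.04 in C, 9.51, 9.43 and 9.60 in C + P, 7.65, 7.58 and 8.64 in D, and 8.83, 8.74 and 8.53 in D + P. All 3 D arrays lay below all 3 C arrays and all 3 D + P arrays below all 3 C + P arrays, and D replicate 3 was the highest of the D arrays. The difference was -1.09 (SE 0.26, adjusted p = 0.27) in D versus C, -0.82 (SE 0.26, adjusted p = 0.515) in D + P versus C + P and -0.96 (SE 0.19, adjusted p = 0.111) in the average, 0.515 times the non-diabetic level. It passed with array weights (adjusted p = 0.0286) and without D replicate 3 (adjusted p = 0.0282), and over its alternatives the adjusted p ranged from 0.0282 to 0.306. *Folr2*, a folate receptor of resident macrophages, had an average difference of -0.62 (SE 0.20) and *Mrc1*, the mannose receptor CD206, a difference of -0.35 (SE 0.15).

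For *Lyve1* and *Timd4* the interval of the average difference included 0. *Lyve1*, a hyaluronan receptor that lymphatic vessels also carry, measured 8.04, 7.83 and 7.90 in C, 8.02, 7.39 and 8.13 in C + P, 7.26, 7.89 and 7.96 in D, and 7.51, 7.97 and 7.88 in D + P. The groups overlapped, and the average difference of -0.14 had a 95% interval -0.53 to 0.25 and an adjusted p of 0.791. Without C + P replicate 2 it was -0.25, without C + P replicate 3 -0.067, without D + P replicate 1 -0.069 and without D replicate 1 -0.028. Its sign turned with array weights (0.095). A list of 6 other lymphatic endothelium genes had a median of 0.27 in the average, with 5 of 6 higher, and the part of these vessels in the *Lyve1* value was not tested. *Timd4*, which binds phosphatidylserine on dying cells, differed by -0.31 (SE 0.29) in D versus C and 0.30 (SE 0.29) in D + P versus C + P, which gave -0.0011 in the average (95% interval -0.45 to 0.45). Without C + P replicate 3 the value with pargyline was -0.034, and without C replicate 1 that in D versus C was -0.14. It was well above background on 4 of 12 arrays, of which 0 were D arrays.

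The chains of C1q and the lysosomal genes *Cd68* and *Ctss* had lower means in diabetic hearts, and none passed. *C1qa* encodes a chain of the complement starter C1q and measured 9.002, 8.59 and 8.33 in C, 9.39, 8.48 and 8.47 in C + P, 7.85, 8.49 and 8.52 in D, and 8.20, 7.98 and 8.48 in D + P. D replicate 1 and D + P replicate 2 were lowest and C + P replicate 1 highest, and the groups overlapped. Its average difference was -0.46 (SE 0.21, adjusted p = 0.449), and without C + P replicate 1 it was -0.30. *C1qb* and *C1qc*, the other chains, differed by -0.45 (SE 0.16) and -0.43 (SE 0.13) in the average, and D lay below C on all arrays for both. *Cd68*, a glycoprotein of phagocyte lysosomes, measured 9.09, 8.56 and 8.67 in C, 8.99, 8.46 and 8.58 in C + P, 8.46, 8.25 and 8.51 in D, and 7.89, 7.94 and 8.36 in D + P. All D arrays lay below all C arrays and all D + P arrays below all C + P arrays, and the average difference was -0.49 (SE 0.15, adjusted p = 0.268). A weaker tested *Cd68* probe had the same sign (-0.70). The cathepsin gene *Ctss*, whose product trims the invariant chain Cd74 and digests antigens, differed by -0.40 (SE 0.14).

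The lysozyme genes had lower means by their brightest probes, and the probes of *Lyz2* disagreed. *Lyz2*, the lysozyme of macrophages, measured 13.71, 13.69 and 13.58 in C, 14.35, 13.72 and 13.61 in C + P, 13.20, 13.63 and 13.55 in D, and 13.08, 13.33 and 13.30 in D + P. D + P lay below C + P on all arrays, while D and C overlapped. The difference was -0.66 (SE 0.21, adjusted p = 0.511) in D + P versus C + P, where C + P replicate 1 was highest and its removal left -0.43, and -0.20 (SE 0.21) in D versus C (-0.07 without D replicate 1). The other *Lyz2* probe differed by 0.59 in D versus C and -0.55 in D + P versus C + P. *Lyz1*, its neighbour on the chromosome, differed by -0.58 (SE 0.25) in the average (-0.38 without D replicate 1). The *Lyz1* and *Lyz2* probes shared no run of 16 bases with probes of other genes. Cross-hybridisation of a probe with the transcript of the other gene was not tested. *Cd14*, the co-receptor for bacterial lipopolysaccharide, differed by -0.57 (SE 0.18) in D + P versus C + P and by -0.027 (SE 0.18) in D versus C, where the sign turned without C replicate 1 (0.04) or D replicate 2 (0.002).

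*Laptm5*, *Tyrobp*, *Fcer1g*, *Fcgr3* and *Aif1* had lower means in diabetic hearts, and none passed. *Laptm5*, a lysosomal protein of blood cells that turns over antigen and cytokine receptors, measured 8.11, 8.21 and 7.81 in C, 8.04, 8.28 and 8.27 in C + P, 7.56, 7.43 and 7.81 in D, and 7.73, 7.54 and 7.66 in D + P. All D + P arrays lay below all C + P arrays, and D and C overlapped by the nearly equal values of C replicate 3 and D replicate 3. The difference was -0.45 (SE 0.17, adjusted p = 0.403) in D versus C, -0.55 (SE 0.17, adjusted p = 0.455) in D + P versus C + P and -0.50 (SE 0.12, adjusted p = 0.169) in the average. It passed with array weights alone (adjusted p = 0.0424), within a range of 0.0424 to 0.408. *Tyrobp* (DAP12) and *Fcer1g*, adaptors that pass on signals of activating receptors, differed by -0.40 (SE 0.19) and -0.41 (SE 0.16). *Fcgr3*, a receptor for antibody complexes, differed by -0.81 (SE 0.28), with D replicate 1 far below the other D arrays (6.73 against 8.32 and 8.40), without which it was -0.53. *Aif1* (IBA1), an actin-binding protein of macrophages, had the most negative average difference of the members, -1.07 (SE 0.38), and D + P replicate 3 (6.33) lay well below D + P replicate 1 (8.88). Without D + P replicate 3 the difference of *Aif1* was -0.73, less negative than that of *Cd163* (-0.91).

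*Ptprc* encodes CD45, which all white blood cells carry. Its brightest probe measured 11.82, 11.85 and 11.66 in C, 10.92, 11.52 and 11.52 in C + P, 11.74, 11.07 and 10.47 in D, and 10.18, 11.60 and 11.46 in D + P. D + P replicate 1 and D replicate 3 were low, D replicate 1 was at the level of C, and D overlapped C as D + P did C + P, whereas every C + P array lay below every C array. The average difference was -0.46 (SE 0.28, adjusted p = 0.565), and without D + P replicate 1 it was -0.24 (without D replicate 3, -0.31). This probe is assigned to an Ensembl transcript, and the 3 other tested probes differed in the same direction, by -0.22, -0.51 and -0.98. The other 3 *Ptprc* probes were well above background on 0 of 12 arrays.

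The chemokine receptors *Cx3cr1* and *Ccr2* had differences of opposite sign. *Cx3cr1*, the fractalkine receptor of patrolling monocytes and of resident macrophages, measured 7.93, 7.07 and 7.00 in C, 7.88, 7.30 and 7.04 in C + P, 7.06, 6.78 and 7.83 in D, and 5.70, 6.38 and 6.55 in D + P. All 3 D + P arrays lay below every array of the other groups, which overlapped with each other. The difference was -1.20 (SE 0.36, adjusted p = 0.469) in D + P versus C + P and -1.01 (SE 0.36, adjusted p = 0.284) in D + P versus D, but -0.11 (SE 0.36) in D versus C, and the test of their difference, the interaction, gave -1.09 (SE 0.52, adjusted p = 0.713). The value in D versus C turned to 0.19 without C replicate 1 and 0.11 without D replicate 2, and was -0.41 without D replicate 3. With normexp background correction the differences in D + P versus C + P and versus D were -0.60 and -0.52, and without the 4 arrays with the fewest bright spots -0.71 and -0.31. No array had its second tested probe well above background. *Ccr2*, the receptor by which monocytes enter inflamed tissue, was an exception to the direction of the list, at 0.41 (SE 0.21, adjusted p = 0.487), with all D + P arrays above all C + P arrays. *Itgax* (CD11c) was well above background on D replicate 2 (6.44) and D + P replicate 3 (7.21) and on no other array.

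*Csf1r*, the receptor through which macrophages receive survival signals, gave opposite signs by probe. Its brightest probe differed by -0.22 (SE 0.15) and the other by 0.33 in the average, the former -0.14 without C + P replicate 1. *Itgam* (CD11b) did so too, at -0.16 (SE 0.19) by the repeat-bearing probe (-0.025 without D replicate 3 and -0.32 without D replicate 1) and 0.48 by the other, which was well above background on 11 of 12 arrays. In D versus C the *Itgam* probes differed by -0.53 and 0.92 (limma, unadjusted p = 0.0716 and 0.00943). In D + P versus C + P they differed by 0.21 and 0.031. Together with *Lyz2*, 3 of the 10 genes with more than 1 tested probe had probes of opposite sign in the average. *Cd74*, the invariant chain that guides class II molecules and belongs also to the antigen presentation genes, differed by -0.27 (SE 0.19, adjusted p = 0.622), and C replicate 1 was its highest array (11.05) and D replicate 1 its lowest (9.60). Without the former the average was -0.14 and without the latter -0.13, and the difference in D versus C, -0.36 with all arrays, was -0.10 and -0.067.

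**Figure D2:**
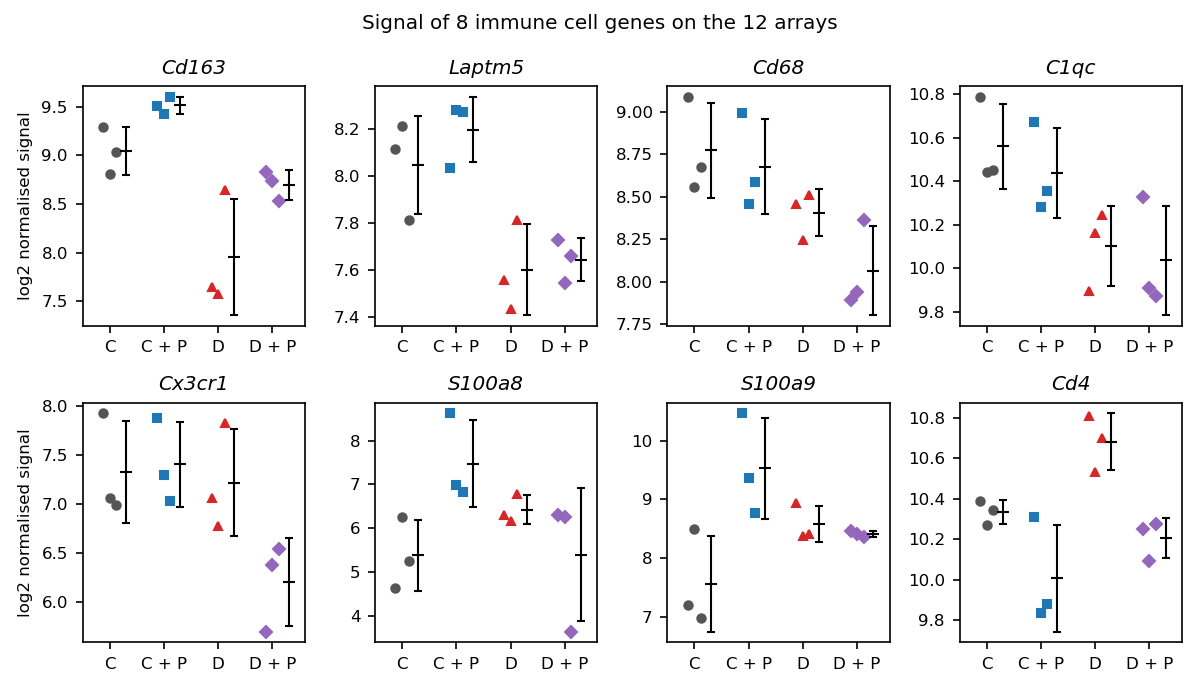
Log2 normalised signal of 8 genes, 1 panel a gene and 1 point an array (circles C, squares C + P, triangles D, diamonds D + P), with the group mean and SD (3 arrays) as bars beside them. *Cd163*, *Laptm5*, *Cd68* and *C1qc* have lower means in D and D + P, *Cx3cr1* has its lowest in D + P, and *S100a8* and *S100a9* have their highest in C + P, while scales differ between panels and do not start at 0.

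Counted by whether the arrays of the groups overlap, 6 of 25 macrophage genes had all D arrays below all C arrays, against 10.4% of all tested probes. In D + P versus C + P it was 11 of 25, against 6.57%. Over the whole macrophage list the mean deviation from each gene's mean over the 12 arrays came to 0.21 ± 0.23 in C, 0.18 ± 0.19 in C + P, -0.18 ± 0.26 in D, -0.21 ± 0.13 in D + P (SD, 3 arrays each). C replicate 1 and C + P replicate 1 were highest and D replicate 1 lowest in that mean. In the mean the diabetic arrays ran from -0.48 to 0.0035 and the others from 0.04 to 0.47, but in the median over genes D replicate 3 (0.032) lay above C replicate 3 (0.015). When the 4 arrays with the fewest bright spots were left out, an alternative chosen after the data were seen, the median macrophage difference in the average was -0.35 and 21 of 25 genes were lower, against -0.43 and 23 with all arrays. With normexp background correction the median was -0.28 in the average and -0.20 in D versus C.

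A second list of macrophage genes, which shares no gene with the members, showed a similar shift. Of its 19 tested genes, 15 were lower in D versus C (51.1% of all probes) and 16 in D + P versus C + P (49%), with medians of -0.25 and -0.61, and 0 passed the threshold (limma) while 9 had an unadjusted p under 0.05 in the average (11.4% of all probes). The nearest was *Cd86*, a co-stimulator of T cells, at -0.78 (SE 0.13, adjusted p = 0.0733) in the average. The list was drawn up with earlier results of these data known and lends no independent support. Cardiomyocyte genes had a median of 0.028 in the average, fibroblast genes 0.051 and blood endothelium genes 0.014, each beside -0.0092 for all probes. Blood endothelium genes stood at -0.16 in D versus C and 0.22 in D + P versus C + P. Other immune lists also had lower medians in D versus C: dendritic and class II -0.44, further T cell -0.30, further B cell -0.36. With pargyline these were -0.16, -0.043 and 0.10. Monocyte (0.085), further neutrophil (0.00115) and mast cell genes (0.58) were not lower in D versus C. Of 11 tested ligands and growth factors that act on leukocytes, 8 were lower in the average (median -0.16, against 51.5% of all probes) and 0 passed by limma (3 had an unadjusted p under 0.05, against 11.4% of all probes).

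**Figure D3:**
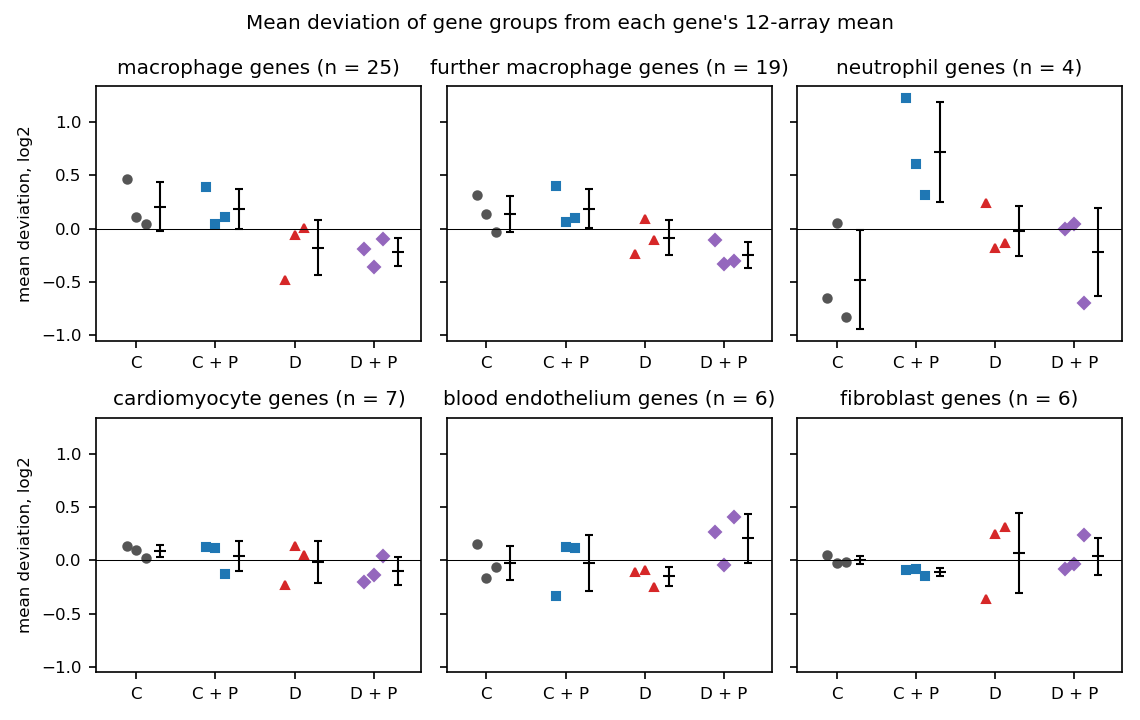
Mean deviation of the genes of 6 groups from each gene's mean over 12 arrays, in log2, with 1 point an array and bars for the group mean and SD (3 arrays). Both macrophage lists have lower means in D and D + P, neutrophil genes have their highest mean in C + P, and cardiomyocyte, blood endothelium and fibroblast genes spread around 0.

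Neutrophil genes had their highest mean in C + P, a group in which pargyline and slide cannot be told apart. *S100a9*, a partner of S100a8 in the alarmin calprotectin, measured 7.22, 8.49 and 6.99 in C, 10.46, 9.36 and 8.77 in C + P, 8.93, 8.39 and 8.41 in D, and 8.46, 8.42 and 8.36 in D + P. All C + P arrays lay above all C arrays, with C + P replicate 1 far above the rest, and the D + P arrays lay close together. The difference was 1.96 (SE 0.45, adjusted p = 0.53) in C + P versus C, 3.9 times the level of C, 1.01 (SE 0.45) in D versus C and -1.12 (SE 0.45) in D + P versus C + P. *S100a8* measured 4.65, 6.26 and 5.26 in C, 8.62, 6.99 and 6.82 in C + P, 6.30, 6.16 and 6.79 in D, and 6.30, 6.25 and 3.65 in D + P. Again all C + P arrays were above all C arrays, and the difference was 2.09 (SE 0.72, adjusted p = 0.9998), against 1.03 (SE 0.72) in D versus C and -2.08 (SE 0.72) in D + P versus C + P, where D + P replicate 3 was by far the lowest. Both were well above background on all C + P arrays, and *S100a8* on 2 of 3 arrays in each other group.

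The diabetes difference of both genes had opposite signs without and with pargyline. Without C + P replicate 1 the difference of *S100a9* in D + P versus C + P was -0.65, and without D + P replicate 3 that of *S100a8* was -1.20. In D versus C that of *S100a8* was 0.66 without C replicate 1. The interaction, the diabetes difference with pargyline minus that without, was -2.13 (SE 0.63, adjusted p = 0.615) for *S100a9* and -3.11 (SE 1.02, adjusted p = 0.654) for *S100a8*, so it did not pass. With normexp background correction *S100a8* was 1.04 in C + P versus C and -1.45 in the interaction. *Mpo*, myeloperoxidase of neutrophil granules, measured 5.16, 4.99 and 4.07 in C, 5.85, 5.51 and 5.04 in C + P, 5.56, 4.99 and 4.88 in D, and 4.85, 4.93 and 4.97 in D + P. It was well above background on 4 of 12 arrays, its groups overlapped in C + P versus C, and its difference there was 0.73 (SE 0.31, adjusted p = 0.9998), or 0.40 without C replicate 3. *Csf3r*, whose probe carries the recurring sequence shown above, measured 15.32, 15.41 and 15.28 in C, 14.93, 15.51 and 15.59 in C + P, 15.12, 14.69 and 14.31 in D, and 15.30, 15.52 and 15.18 in D + P. It was lower on all D arrays than on any C or D + P array, at a difference of -0.63 (SE 0.23, adjusted p = 0.402) in D versus C. Without that probe the median neutrophil difference in C + P versus C was 1.96, against 1.34 with it. Of 10 further neutrophil genes, 4 were tested and 0 passed by limma in C + P versus C (0 had an unadjusted p under 0.05, against 4.43% of all probes, median 0.25) or in D + P versus C + P (2 had such a p, against 7.46%, median -0.45).

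Genes of other blood cells were set beside the neutrophil genes. *Ppbp*, a chemokine stored in platelets, passed in D + P versus C + P at -3.18 (SE 0.42, adjusted p = 0.0336) and in the average at -2.11 (SE 0.30, adjusted p = 0.0418). *Ppbp* measured 7.00, 7.87 and 7.47 in C, 8.44, 8.67 and 7.52 in C + P, 6.08, 6.55 and 6.59 in D, and 5.46, 5.53 and 4.11 in D + P, lowest on the D + P arrays. It was well above background on 1 of 3 D + P arrays and on all C + P arrays, so the size of that difference is uncertain. The other tested platelet gene, *Gp9*, was well above background on 0 D + P arrays and on all C + P arrays, and it was at least 3.51-fold lower in D + P (adjusted p = 0.0823). Such a bound sets the mean of the brighter group against, on each array of the dimmer group, the higher of the probe's own value and the lowest signal well above background. Of 4 tested red cell genes 0 passed by limma and 1 had an unadjusted p under 0.05 in C + P versus C (4.43% of all probes), the band 3 gene *Slc4a1* at 1.73 (SE 0.30, adjusted p = 0.186) with 1 of 3 C arrays well above background. By limma *Slc4a1* was at -1.94 (adjusted p = 0.0823) in D + P versus C + P and -1.78 (adjusted p = 0.565) in the interaction. It was dim in C and D (means 5.45 and 5.30), so these sizes are uncertain. The mean deviation of the red cell list came to -0.099 ± 0.23 in C, 0.37 ± 0.33 in C + P, -0.14 ± 0.28 in D, -0.13 ± 0.21 in D + P. Among 10 monocyte genes, *Nr4a1*, which non-classical monocytes need and which many stimulated cells switch on at once, passed in C + P versus C at 3.82 (SE 0.30, adjusted p = 0.000797), in D + P versus C + P at -3.61 (SE 0.30, adjusted p = 0.00124), in the average at -1.57 (SE 0.21, adjusted p = 0.0362) and in the interaction at -4.07 (SE 0.42, adjusted p = 0.0221). That list's median in C + P versus C was 0.1. The average of *Nr4a1* joins a positive difference in D versus C with the negative one in D + P versus C + P. *Ppbp*, *Gp9*, *Slc4a1*, *Nr4a1* and *Cd86* were named after their values were seen. The part of blood cells in the neutrophil values was not tested.

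**Figure D4:**
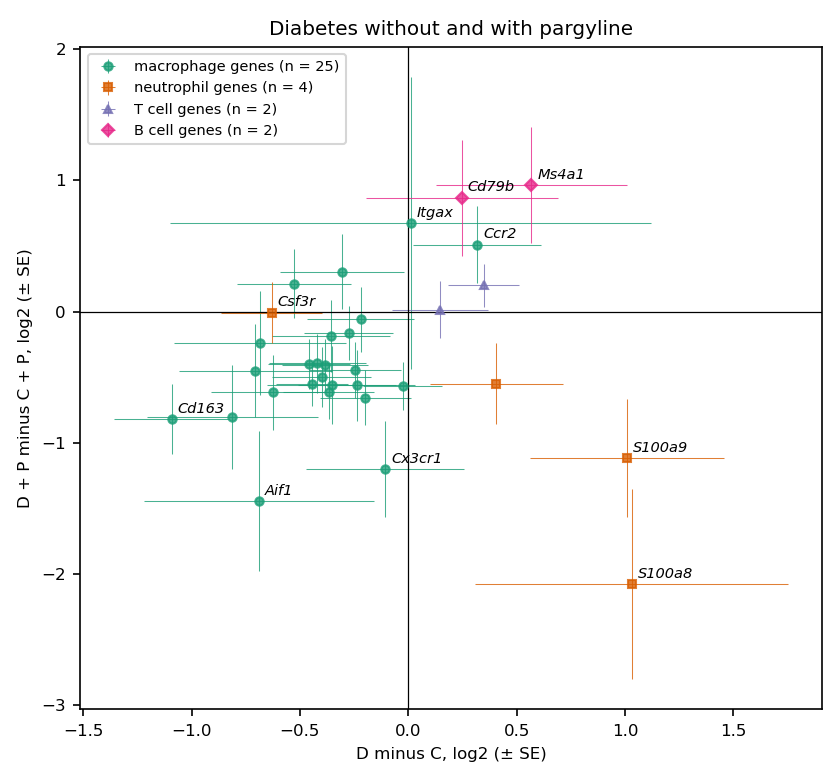
Each point is 1 of the 33 tested genes, with the log2 difference D minus C on the horizontal and D + P minus C + P on the vertical axis, bars of 1 SE, and colour and shape for the class. Most macrophage genes lie below 0 on both axes, *S100a8* and *S100a9* lie right of 0 and below it, and the 2 tested B cell members lie above 0 on both.

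Lymphocyte genes gave few measurable values. *Cd3e*, a signalling chain of the T cell receptor, measured 9.26, 9.34 and 9.33 in C, 9.74, 9.33 and 9.29 in C + P, 9.55, 9.08 and 9.75 in D, and 9.65, 9.64 and 9.11 in D + P. Its groups overlapped, and the average difference was 0.081 (95% interval -0.26 to 0.43, adjusted p = 0.87), with 0.12 for its second tested probe. With single arrays left out it ranged from 0.0084 (without D replicate 3) to 0.18 (without D replicate 2). *Cd4*, the co-receptor of helper T cells that macrophages can also carry, measured 10.39, 10.27 and 10.34 in C, 10.31, 9.83 and 9.88 in C + P, 10.81, 10.53 and 10.70 in D, and 10.25, 10.09 and 10.27 in D + P. All D arrays were above all arrays of C and of D + P. The difference was 0.35 (SE 0.16, adjusted p = 0.469) in D versus C and -0.48 (SE 0.16, adjusted p = 0.271) in D + P versus D, by its 1 tested probe. Of 11 further T cell genes 8 were tested and 0 passed by limma (1 had an unadjusted p under 0.05, against 11.4% of all probes), at a median of -0.18 in the average. In D versus C the median was -0.30 with 7 of 8 lower (51.1% of all probes). In D + P versus C + P it was -0.043 with 4 of 8 lower (49% of all probes).

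For B cells, *Cd79a*, a signalling chain of the B cell receptor, measured 3.79, 2.94 and 3.44 in C, 4.48, 3.82 and 3.44 in C + P, 3.04, 3.96 and 3.09 in D, and 3.14, 3.85 and 3.20 in D + P, and none of these values was well above background. *Cd79b*, its partner chain, was well above background on all but 1 array and differed by 0.56 (SE 0.31, adjusted p = 0.535) in the average, with D + P replicate 1 highest (7.82) and C + P replicate 1 lowest (5.18). Without these arrays in turn the average was 0.36 and 0.31, and the difference in D + P versus C + P, 0.87 with all arrays, was 0.48 and 0.36. *Ms4a1* (CD20) was well above background on 2 D + P arrays and on none of C, C + P or D, so in D + P versus C + P it was at least 1.06-fold higher (adjusted p = 0.671). Of 9 further B cell genes 5 were tested and 0 passed by limma (0 had an unadjusted p under 0.05, against 11.4% of all probes), at a median of -0.0008 in the average. That average joins opposite signs. In D versus C the median was -0.36 with 4 of 5 lower (51.1% of all probes). In D + P versus C + P it was 0.10 with 2 of 5 lower (49% of all probes).

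Pargyline was compared last, in C + P versus C and in D + P versus D, where it cannot be told apart from slide. Macrophage genes had medians of -0.0036 and 0.0045, with 13 and 12 of 25 genes lower. With single arrays left out the first ranged from -0.17 (without C + P replicate 1) to 0.13 (without C replicate 1). By limma 0 of 33 members passed in either, where 0.0324% and 0% of all probes did. At an unadjusted p under 0.05 by limma stood 3 members in C + P versus C and 5 in D + P versus D, against 4.43% and 13.3% of all probes. The t-test with Benjamini-Hochberg adjustment called 0 members in both, and the share of all probes that it called is not given here. In C + P versus C, 3 of 33 members (*S100a8*, *S100a9* and *Cd163*) had all C + P arrays above all C arrays, as had 7.35% of all probes, and 3 (*Ptprc*, *Ccr2* and *Itgam*) had all of them below, as had 8.02% of all probes. *Cd163* was also higher in D + P than in D, by 0.74 (SE 0.26, adjusted p = 0.281), though D replicate 3 lay within the D + P range. The macrophage median in D + P versus D ranged from -0.23 (without D replicate 1) to 0.11 (without D replicate 3). In the interaction 0 of 33 members passed by limma, where 0.00648% of all probes did. In it, 2 members stood at an unadjusted p under 0.05, *S100a8* and *S100a9*, against 7.03% of all probes. The macrophage median of the interaction was 0.011, from -0.15 (without D replicate 1) to 0.17 (without C + P replicate 1).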

How the data were processed

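RNA of 12 hearts was measured, 3 per group, and samples were grouped from their labels. The authors labelled 200 ng of RNA (integrity number above 7) with Cy3, hybridised it to Agilent mouse arrays and extracted spots with Feature Extraction (version 12.0.0.7 per the file headers, which differs from that of the study's methods). The deposited files give each spot's background-corrected intensity on a linear scale, with flags, not normalised between arrays. The deposited series table holds intensity that the authors quantile normalised, used here as an alternative. Its ranks within an array equal those of the scanner signal. In the deposited files flags are scores of 0 or 1.

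Here, intensities were log2 transformed and quantile normalised between the 12 arrays after outlier spots and control spots were left out, and spots of a probe were averaged. The authors set signals that were not positive and significant to missing, which was tried as an alternative. Tested were 30859 of 56605 probes, and 45 of 62 member probes, whose signal was positive and significant in each group on 50% of its arrays or more. Each gene is given by its brightest tested probe. limma 3.58.1 in R 4.3.3 (1 mean per group, all 12 arrays, 8 residual and 2.62 prior degrees of freedom) gave two-sided p-values, adjusted by Benjamini-Hochberg over all tested probes of a contrast, with a threshold of 0.05. Differences are log2, with 95% intervals.

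The members and 18 further marker lists were chosen with earlier results of these data known. Given in full are the members past the threshold, the 3 with the smallest p in each of 6 contrasts, and *Ptprc*, *Cd68*, *C1qa*, *Lyve1*, *S100a8*, *Cd3e* and *Cd79a*. Alternatives were the 75th percentile scaling, normexp (offset 50), dim signals set to missing, other filters on dim probes, the deposited table, the methods' t-test (with Benjamini-Hochberg adjustment), array weights, only the groups compared, slide, slide column or replicate as a block, the mean of a gene's probes, and each array left out. The fit was tested on simulated data. Accessions of 48 of 62 member probes matched RefSeq, all with the same symbol. The files place probes on mm9, and the part of the transcript is not given in the sources used here. Figures were drawn with Python 3.11.15 and matplotlib 3.10.9.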

Additional observations from a re-analysis of the deposited data

How the results depend on the processing

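The count of members past the threshold was 0 in every contrast and alternative run except 3. Array weights called 1 member in D versus C and 2 in the average (*Cd163*, and *Laptm5* in the average), and leaving out single arrays gave 0 to 1 in the average, the 1 being *Cd163* without D replicate 3. The share of all probes that passed in these alternatives is not given here, so whether the members passed beyond it is not known. The count at an unadjusted p under 0.05 in the average ranged from 9 (normexp background correction) to 18, and over single arrays left out from 10 to 16. With normexp the median of neutrophil genes was 0.66 in C + P versus C and -0.97 in the interaction, that of T cell genes -0.30 in C + P versus C and that of B cell genes 0.37 in D + P versus C + P. Array weights gave T cell genes 0.11 in the interaction. Leaving out probes with recurring sequence, chosen after the data were seen, gave neutrophil genes 1.96 in C + P versus C and -2.13 in the interaction, since it removes *Csf3r*. Leaving out the 4 dimmest arrays, also chosen after the data were seen and with 1 D array left whose spread is taken from the other groups, gave B cell genes 0.35 in D + P versus C + P, T cell genes -0.017 in D versus C, -0.026 in D + P versus D and 0.22 in the interaction, macrophage genes -0.26 in D + P versus D and neutrophil genes -1.03 in the interaction. Leaving out single arrays gave macrophage genes -0.23 to 0.11 in D + P versus D. The average difference of *Lyve1* turned to 0.095 with array weights and 0.068 without the 4 dimmest arrays, where that of *Cd3e* was -0.081. The cause of these shifts was not tested. At an unadjusted p under 0.05 the members numbered 2 to 8 (5 in the fit reported) in D versus C, 4 to 14 (9 in the fit reported) in D + P versus C + P, 2 to 7 (3 in the fit reported) in C + P versus C, 1 to 5 (5 in the fit reported) in D + P versus D and 2 to 5 (2 in the fit reported) in the interaction. Counts of T cell or B cell genes that were lower moved by 1 or 2. Alternatives beyond single arrays were run for the members given in full, each in the contrast named for it, and the other values so obtained had the same direction and side of the threshold. With each array left out in turn, the difference changed sign at least once for 4 of 33 members in D versus C (*Cd14*, *Cx3cr1*, *Itgax* and *Lyve1*), 6 in D + P versus C + P (*Cd3e*, *Csf3r*, *Itgax*, *Lyve1*, *Ptprc*, 0.21 without D + P replicate 1, and *Timd4*) and 4 in the average (*Itgax*, *Mpo*, *S100a9* and *Timd4*). It moved by over 1.5 times for 27, 25 and 15 members. *C1qa* in the average was -0.22 with normexp, -0.26 with array weights and -0.20 without the 4 dimmest arrays, where *Lyz2* was -0.35 in D + P versus C + P. With normexp *Mpo* was 0.29 in C + P versus C and -0.50 in the interaction, and *Csf3r* was -0.41 in D versus C with the 75th percentile scaling.

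The replicate numbers name different mice, and arrays of the same number deviated together no more than others (mean r 0.01 over 18 pairs, -0.01 over 36 pairs of different numbers). With the replicate block the count of members past the threshold was 0 in every contrast, 15 members had an unadjusted p under 0.05 in the average, and the difference of *Cd163* was -0.96 with an adjusted p of 0.206. The share of all probes at that unadjusted p with this block is not given here. With slide as a block and diabetes as the term the average was fitted. D versus C and D + P versus C + P each lie within 1 slide, and the pargyline contrasts could not be fitted with it. Signal over background limits *Itgax*, *Timd4*, *Mpo*, *Ms4a1* and the 4 untested genes.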

Other observations

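Further cell type lists, each with 1 brightest tested probe a gene, held no gene past the threshold (limma) beside *Ppbp* and *Nr4a1*. Of 5 tested mast cell genes, 2 had an unadjusted p under 0.05 in D versus C (10.8% of all probes), both higher, the protease genes *Mcpt4* (1.17) and *Tpsb2* (1.16), named after their values were seen. *Kit* (-1.34) and *Fcer1a* (-0.35) were on the other side and *Cma1* was at 0.58, and the list's median was 0.58 there and 0.061 in D + P versus C + P. Of 3 tested genes of natural killer cells, *Prf1* was at 0.58 in D versus C and 0.49 in D + P versus C + P, *Gzma* at -0.82 and -0.73, and *Klrb1c* at -0.27 and 0.22, and the medians were -0.27 and 0.22. The 7 tested dendritic cell and class II genes were all lower in the average, by a median of -0.21, beside 51.5% of all probes that were lower. An unadjusted p under 0.05 was reached by 0 of them there (11.4% of all probes) and by 2, *Ciita* and *H2-Ab1*, in D versus C (10.8%). The medians of the remaining lists in the average were -0.023 for monocytes, -0.23 for further neutrophil genes, -1.79 for platelets (2 genes), -0.11 for red cells, -0.029 for mural cells, 0.0087 for adipocytes (2 genes) and -0.025 for thymus and lymphoid tissue (3 genes). In D versus C and D + P versus C + P, medians had opposite signs for adipocytes (0.68, -0.66), mural cells (-0.20, 0.32), monocytes (0.085, -0.057) and further neutrophil genes (0.00115, -0.45). Both were negative for thymus and lymphoid tissue (-0.39, -0.021), red cells (-0.058, -0.11) and platelets (-0.75, -2.84).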
